A study of Ovis aries with 16 samples.

Results

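The interaction of prenatal bisphenol A (BPA) with overfeeding was measured in the myocardium, or heart muscle, of adult female sheep (Ovis aries). It is the difference between the effect of prenatal BPA in overfed animals and its effect in animals on a control diet. All 16 libraries of the series, of 16 animals, entered it, and the groups were taken from the sample titles. The control group came from ewes injected with corn oil alone and ate the control diet. The BPA group ate the same diet, and its mothers had received BPA in corn oil at 0.5 mg/kg per day subcutaneously from day 30 to day 90 of gestation. The obese group came from vehicle ewes and was overfed. The ObBPA group had both exposures. Each group held 4 animals, with libraries numbered 0 to 3. The diets parted at 14 weeks of age, with 1.4 lb of corn and 1.4 lb of hay a day for control-fed lambs. Overfed lambs began on 1.7 lb of corn and 1.6 lb of hay and then fed freely. All animals received prostaglandin F2α injections of 20 mg, 11 days apart, and hearts were taken at 21 months. The animals were selected at random within groups, and the labels give neither their mothers nor whether any were sisters.

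BPA is a component of plastics that binds oestrogen receptors, and gestation is the period in which the heart forms and its muscle cells multiply. Overfeeding exposes the adult heart to more fatty acid and glucose and to a larger body to perfuse. An early exposure can act in the same way under either diet, in which case the effects add up, or it can act differently once a second load is present. The crossed design, with each prenatal treatment under each diet, separates these cases. The deposited table gave Ensembl sheep gene IDs without names, positions or annotation. Of these IDs, 0 matched the gene table used here, so features are named by ID, their functions are not given, and the tissue could not be checked against its marker genes.

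Values are FPKM, which are fragment numbers corrected for transcript length and for the fragments mapped in a library, and log2 differences are on the log2(FPKM + 1) scale, which understates changes of low features. Tests covered 13251 of the 27054 features, those reaching an FPKM of 1 in 4 or more of the 16 libraries. Between 12333 and 12835 features reached an FPKM of 1 in a library. Among libraries 1 to 3 of each group, estimated depth relative to control library 3 was lowest in control library 1 at 0.540 and highest in BPA library 3 at 1.75. The ratios behind these estimates were shared by 8.08% and 7.21% of the features used, with the next most common at 6.21% and 5.82%. Absolute depth is unknown. Some libraries stood apart. Control library 1 had the widest spread around its group, with a median absolute deviation of 0.311 on the log2 scale, followed by control library 0 at 0.232. The other 14 libraries lay between 0.0882 and 0.169. The 4 libraries numbered 0 differed from the other 12 by limma, at a false discovery rate (FDR) of 0.05, in 3150 of 13251 features. Of these, 2805 were lower and 345 higher in the libraries numbered 0. The count was 1601 of 13251 after median-of-ratios scaling. It was 1587 of 13198 without control library 0, 1903 of 13206 without obese library 0 and 4789 of 13198 without control library 1. The labels do not say what the number 0 marks. Each group holds 1 such library, so the counts of features and the interactions of the named features are given also without control library 1 and without the libraries numbered 0.

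No feature was called for the interaction. By limma with Benjamini-Hochberg adjustment 0 of 13251 features passed an FDR of 0.05 (0% called), and the smallest adjusted p was 0.999. At an unadjusted p under 0.05 there were 360 features (2.72%), where evenly distributed p-values would give 663. Of these, 187 had a positive interaction (1.41%), with ObBPA above what the other 3 groups add up to, and 173 a negative one (1.31%). Below an unadjusted p of 0.01 there were 75 features (0.566%), and below 0.001 there were 3 (0.0226%), ENSOARG00000021045, ENSOARG00000025092 and ENSOARG00000026941, described below. The sizes of the interactions of the 360 features had a median of 0.60 on the log2 scale and a minimum of 0.23. At least 1 library was listed at 0 for 41 of the 360 features (11.4%), against 588 of all tested (4.44%).

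The count of 360 moved with the libraries fitted. It was 766 (5.80%) without control library 0, 430 (3.26%) without control library 1, 521 (3.95%) without control library 2 and 379 (2.87%) without control library 3. Among the other groups it ran from 275 (2.08%) without ObBPA library 2 to 452 (3.43%) without ObBPA library 3. It was 582 (4.45%) without the libraries numbered 0. Without both control library 1 and the libraries numbered 0 it was 1017 of 13023 features (7.81%), more than the 651 that even p-values would give. With weights estimated for each library it was 1418 (10.7%). In each of these fits 0 features passed an FDR of 0.05 by limma, and the smallest adjusted p in any was 0.0769, with library weights.

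**Figure D1:**
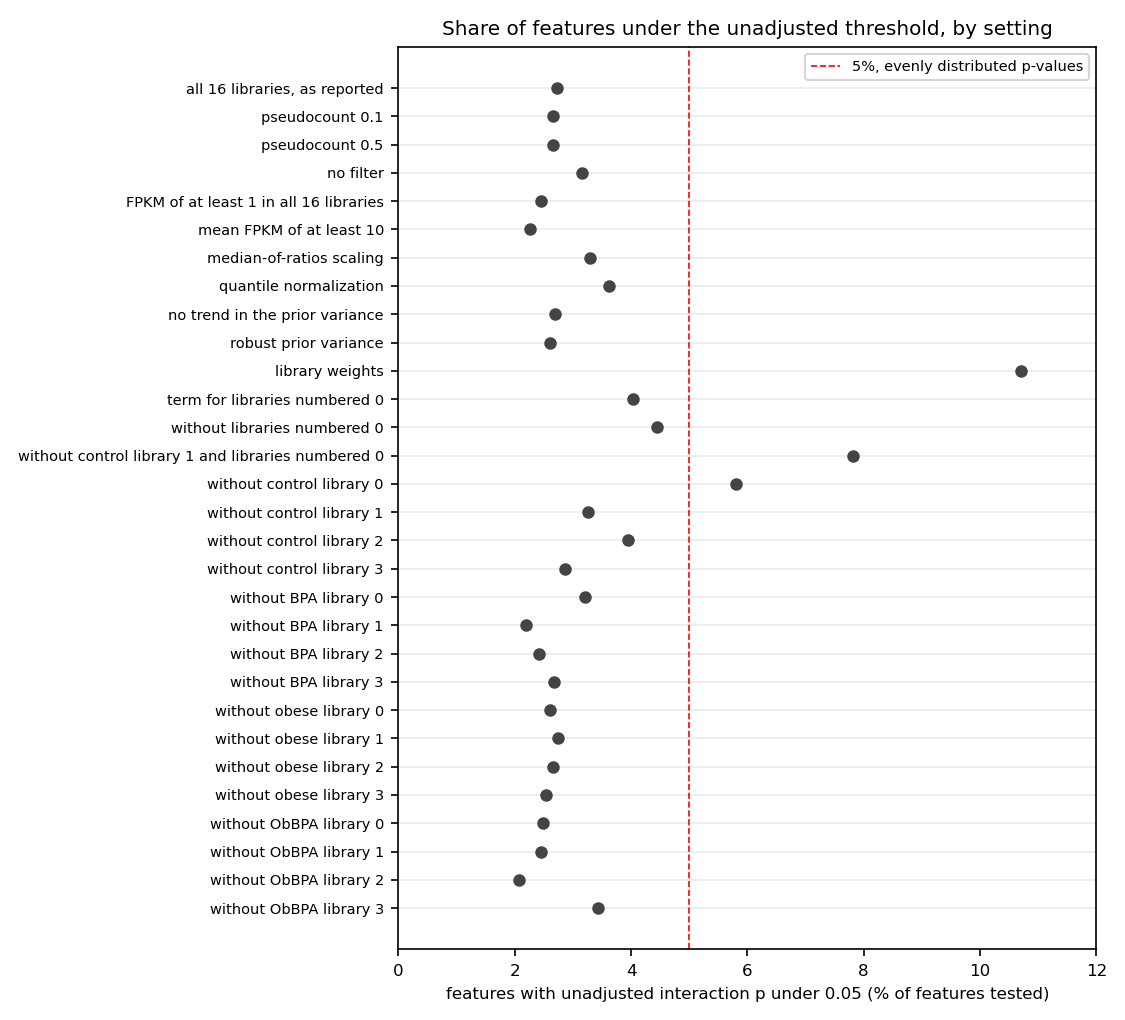
Share of tested features with an unadjusted interaction p under 0.05 (x axis, percent) under each setting (y axis), with a dashed line at the 5% of evenly distributed p-values. The fit of all 16 libraries sits at 2.72%, and only 3 settings lie right of the line: library weights at 10.7%, without control library 1 and libraries numbered 0 at 7.81%, and without control library 0 at 5.80%.

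The median SE of the interaction was 0.223 on the log2 scale. An interaction of 2-fold or more, up or down on FPKM + 1, was outside the 95% interval of 83.81% of features. The share was 81.35% for features with a mean FPKM under 2, 85.24% from 2 to 10, 84.74% from 10 to 100 and 76.76% at 100 and over. On this scale, which shrinks the differences of low features, the most abundant features had the widest intervals. For the remaining features a 2-fold interaction was inside the interval at this number of animals. With 0.1 in place of 1 added before the log, the share over all features was 73.01%.

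Abundant features leaned to one side, and that lean turned with 1 library. Among 1067 features whose mean FPKM was 100 or more, 72.9% had a positive interaction, with a median of 0.13 on the log2 scale. The median difference with prenatal BPA in these features was -0.08 under the control diet and 0.04 in overfed animals. Without control library 1, 41.2% were positive and the median was -0.03. Control library 1 exceeded the mean of the other control libraries by a median of 0.64 in these features, and control library 0 fell short of the others by 0.42. In the other 3 groups the libraries deviated by -0.24 to 0.13. The median was 0.24 without control library 0, 0.06 without BPA library 0 and 0.07 without obese library 0. It was 0.02 after quantile normalization, -0.01 with library weights, and -0.03 without both control library 1 and the libraries numbered 0. Over all features the median interaction was 0.01, with 6991 positive and 6260 negative.

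**Figure D2:**
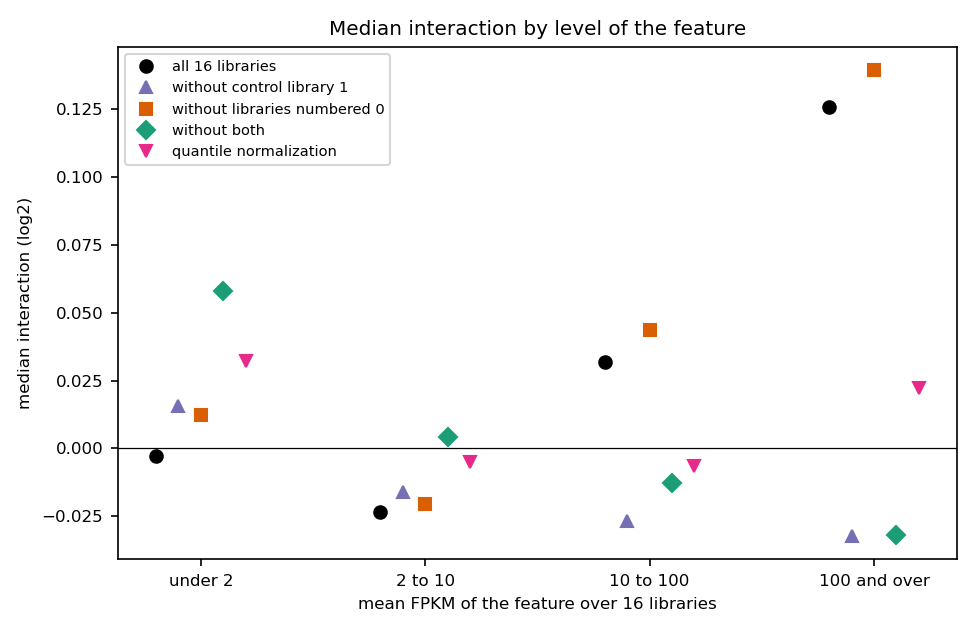
Median interaction on the log2 scale (y axis) of features grouped by mean FPKM (x axis), for all 16 libraries, without control library 1, without the libraries numbered 0, without both, and after quantile normalization. In the most abundant features the median was 0.13 with all libraries and -0.03 without control library 1.

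The 360 features were sorted by shape, using the ratio of the smaller to the larger of the differences with prenatal BPA in the 2 diets. In 213 features (59.2%) the differences were opposed, with a ratio of -0.5 or less. In 75 (20.8%) the difference was mainly under the control diet and in 72 (20.0%) mainly in overfed animals, with ratios between -0.5 and 0.5. None had a ratio of 0.5 or more. Over all 13251 features these shares were 22.8% opposed, 36.2% control diet, 23.9% overfed and 17.1% in the same direction. A large interaction selects for differences of opposite sign, so this split describes the 360 features and carries no test. Without control library 0 the counts were 390 opposed and 313 control diet, of 766 features under the threshold. The control diet class held 216 of 521 features without control library 2 and 134 of 379 without control library 3. It held 128 of 424 without BPA library 0 and 207 of 582 without the libraries numbered 0. The overfed class held 109 of 430 without control library 1 and 133 of 452 without ObBPA library 3.

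Opposed features with a positive interaction numbered 117, with a median difference of -0.32 under the control diet and 0.33 in overfed animals. The 96 with a negative interaction had medians of 0.27 and -0.27. Within 1 diet, 324 features were at an unadjusted p under 0.05 for prenatal BPA under the control diet (2.45%) and 260 in overfed animals (1.96%), and by limma 0 (0%) passed an FDR of 0.05 in either. In 10 features of all tested (0.0755%) the unadjusted p was under 0.05 in both diets with opposite signs. Among diet-specific features, the 40 positive ones of the overfed class had a median of 0.52 in overfed animals beside -0.15 under the control diet, and the 32 negative ones had -0.51 beside 0.15. The 30 positive ones of the control diet class had -0.44 under that diet beside 0.13, and the 45 negative ones had 0.37 beside -0.10. Over all features, which are not independent, the differences correlated between diets by -0.0369 (Pearson) and -0.124 (Spearman). These comparisons share no library but share the fit.

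**Figure D3:**
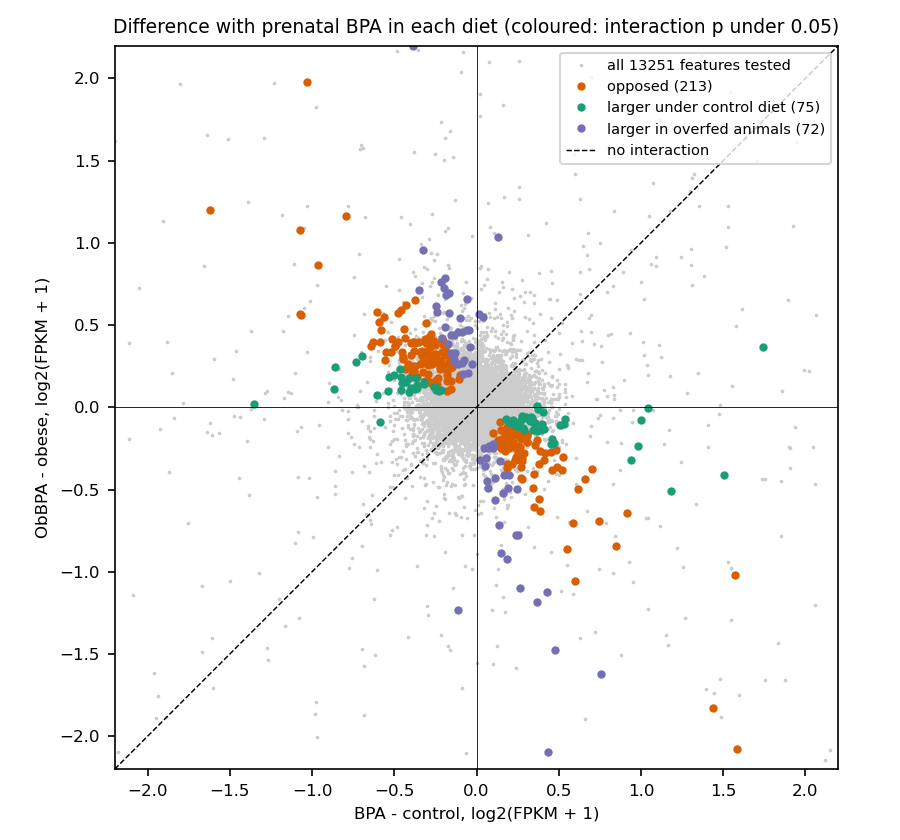
Difference with prenatal BPA under the control diet (BPA - control, x axis) and in overfed animals (ObBPA - obese, y axis), log2(FPKM + 1), for each tested feature (grey), with the 360 features at an unadjusted interaction p under 0.05 coloured by shape. The coloured points lie off the dashed line of no interaction, 213 of them opposed, and 136 features, 25 of them among the 360, fall outside the axes.

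The group farthest from the mean of the other 3 was control in 121 of the 360 features (33.6%), obese in 104 (28.9%), ObBPA in 75 (20.8%) and BPA in 60 (16.7%). Over all tested features these shares were 42.7%, 21.1%, 21.2% and 15.0%. The split moved with the libraries fitted. Control was the odd group in 479 of 766 features without control library 0, in 134 of 430 without control library 1, in 302 of 521 without control library 2 and in 194 of 379 without control library 3. Without the libraries numbered 0 it was the odd group in 276 of 582. Another group led in some fits. ObBPA led in 152 of 452 features without ObBPA library 3, beside 113 for control, and in 445 of 1418 with library weights, beside 391. Obese led in 135 of 363 without obese library 1, beside 102 for control. The difference between the 360 and all features was not tested.

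Opposed differences are shown by the feature of smallest p in each direction. ENSOARG00000026941 had FPKM values of 4.85, 5.07, 6.27 and 4.44 in control libraries 0 to 3 and of 3.73, 4.22, 3.24 and 3.05 in BPA libraries. In overfed animals it had 2.99, 4.36, 3.45 and 4.14 in obese and 6.01, 5.47, 6.31 and 3.75 in ObBPA libraries. All BPA libraries lay below all control libraries, whereas in overfed animals only ObBPA library 3 reached into the obese range. The log2 difference was -0.43 under the control diet and 0.42 in overfed animals, an interaction of 0.85 ± 0.206 (SE, 95% interval 0.41 to 1.30) with an adjusted p of 0.999 by limma. This interaction was 0.86 without control library 1 and 0.77 without the libraries numbered 0. ENSOARG00000004490 went the other way, with 2.48, 1.88, 2.51 and 2.73 in control and 2.75, 3.60, 4.35 and 2.73 in BPA libraries. Its values were 3.73, 2.97, 3.33 and 2.66 in obese and 1.76, 1.90, 2.23 and 2.74 in ObBPA libraries. All BPA libraries lay above all control libraries, by a margin under the printed digits, and ObBPA library 3 overlapped the obese range. The differences were 0.35 under the control diet and -0.40 in overfed animals. The interaction was -0.75 ± 0.196 (SE, adjusted p 0.999 by limma), and it was -0.68 without control library 1 and -0.71 without the libraries numbered 0.

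One feature, chosen after its values were seen, separated the libraries along the crossed diagonal. For ENSOARG00000021137 all 8 BPA and obese libraries lay above all 8 control and ObBPA libraries. It was the only feature of 13251 to do so (0.00755%), and 0 features (0%) showed the reverse. The number that a random order of libraries would give was not computed, so this separation carries no test. Control libraries had 4.76, 5.03, 5.07 and 4.79, and BPA libraries 5.12, 5.88, 6.31 and 5.39. Obese libraries had 5.48, 6.41, 5.28 and 5.31, and ObBPA libraries 3.71, 4.93, 4.47 and 4.95. The gap between the diagonals was narrow, since control library 2 at 5.07 came next to BPA library 0 at 5.12. Its interaction was -0.44 ± 0.129 (SE), and the adjusted p by limma was 0.999. It came to -0.45 without control library 1 and -0.40 without the libraries numbered 0. It ranked behind the features above because its differences were small, 0.17 under the control diet and -0.27 in overfed animals.

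**Figure D4:**
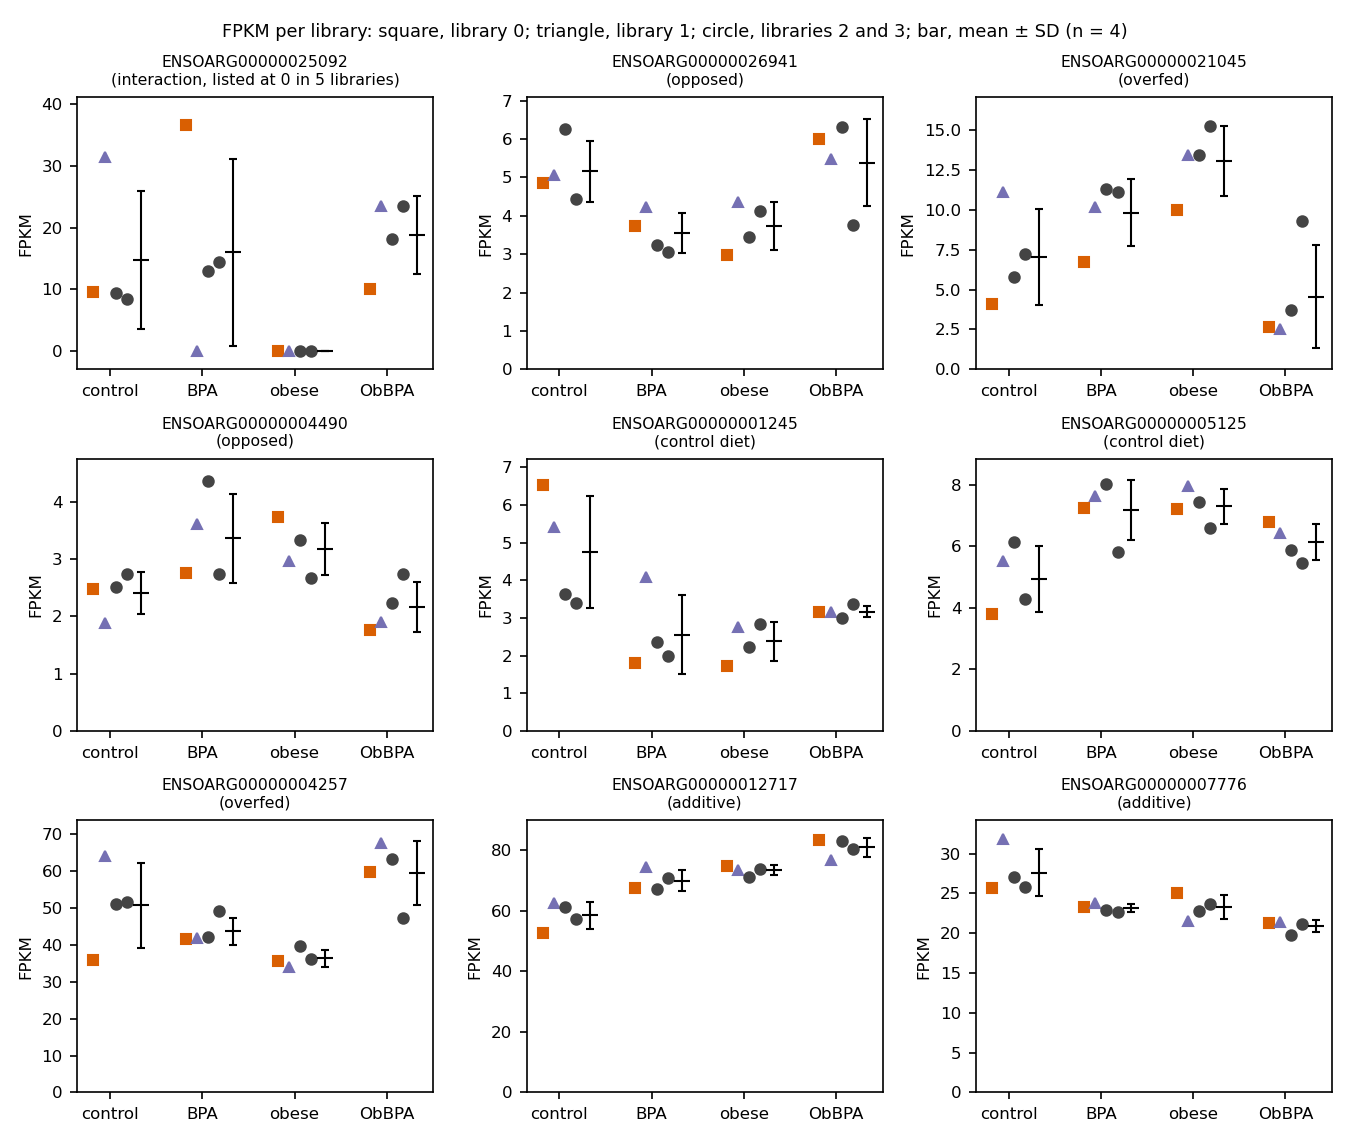
FPKM (y axis) of 9 features in each library of the 4 groups (x axis), with squares for libraries numbered 0, triangles for those numbered 1, circles for 2 and 3, and the mean ± SD beside them. Only ENSOARG00000025092 is listed at 0, in all 4 obese libraries and in BPA library 1.

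Differences mainly in overfed animals included the smallest p of all. ENSOARG00000021045 had 4.07, 11.1, 5.79 and 7.21 in control and 6.74, 10.2, 11.3 and 11.1 in BPA libraries, which overlapped. It had 10.01, 13.5, 13.4 and 15.3 in obese and 2.66, 2.51, 3.71 and 9.30 in ObBPA libraries, which did not overlap. ObBPA library 3 stood close to the obese range. The log2 difference was 0.48 under the control diet and -1.48 in overfed animals, an interaction of -1.95 ± 0.451 (SE, 95% interval -2.92 to -0.99) with an unadjusted p of 0.000661 and an adjusted p of 0.999 by limma. It was -2.17 without control library 1, -1.87 without the libraries numbered 0 and -2.30 without ObBPA library 3, where the adjusted p was 0.180. Over its 29 alternatives the adjusted p ran from 0.104 to 1.

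ENSOARG00000004257 had the opposite sign. Control libraries had 36.0, 64.2, 51.1 and 51.7 and BPA libraries 41.6, 41.9, 42.2 and 49.2. Obese libraries had 35.6, 34.0, 39.6 and 36.3 and ObBPA libraries 59.7, 67.5, 63.3 and 47.2. All ObBPA libraries lay above all obese libraries, and the control range enclosed all BPA libraries. The difference was -0.18 under the control diet and 0.68 in overfed animals, an interaction of 0.87 ± 0.212 (SE, adjusted p 0.999 by limma). The control libraries that ended its range were library 0 at the low end and library 1 at the high end. Without control library 1 the difference under the control diet was -0.06 and the interaction 0.75, and without the libraries numbered 0 they were -0.31 and 0.98. The difference in overfed animals was 0.68 and 0.67 in these fits.

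ENSOARG00000025092 had the largest fitted interaction of the named features, and it was listed at 0 in 5 libraries. All 4 obese libraries were at 0, whereas ObBPA libraries had 10.1, 23.4, 18.2 and 23.5. Control libraries had 9.66, 31.4, 9.38 and 8.46, and BPA libraries 36.5, 0, 13.0 and 14.5. A listed 0 can be a failed estimate, so no fold change is given. The fitted interaction of 4.76 ± 1.13 (SE, adjusted p 0.999 by limma) depended on the constant added before the log and ran from 3.67 to 8.78 over 29 alternatives. The lowest value was that without BPA library 1, the library at 0. Without control library 1 it was 4.34, and without the libraries numbered 0 it was 5.79.

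Differences mainly under the control diet are shown by 1 feature in each direction, the first with widely spread control libraries. ENSOARG00000001245 had 6.55, 5.43, 3.63 and 3.41 in control and 1.81, 4.09, 2.35 and 1.99 in BPA libraries, with BPA library 1 inside the control range. It had 1.72, 2.75, 2.23 and 2.83 in obese and 3.15, 3.15, 2.9999 and 3.36 in ObBPA libraries, which did not overlap. The differences were -0.70 and 0.31, an interaction of 1.01 ± 0.279 (SE, adjusted p 0.999 by limma). The 2 highest control values were those of libraries 0 and 1. The interaction was 0.94 without control library 1, 0.67 without the libraries numbered 0 and 0.50 without both. Without both, its differences were -0.29 and 0.21, which their ratio places in the opposed class. ENSOARG00000005125 had 3.78, 5.53, 6.12 and 4.28 in control and 7.24, 7.62, 8.03 and 5.80 in BPA libraries, with BPA library 3 inside the control range. Obese libraries had 7.22, 7.95, 7.43 and 6.57 and ObBPA libraries 6.79, 6.44, 5.87 and 5.46. The differences were 0.47 and -0.22, an interaction of -0.69 ± 0.180 (SE, adjusted p 0.999 by limma), and it was -0.74 without control library 1 and -0.63 without the libraries numbered 0. Without the libraries numbered 0 its differences were 0.37 and -0.26, so this feature too moved to the opposed class.

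Additive features were those with both averaged effects, of prenatal BPA over the diets and of overfeeding over the prenatal treatments, at an unadjusted p under 0.05 and the interaction not. There were 19 of 13251 (0.143%), and an interaction that misses the threshold does not show that effects add exactly. Both effects were higher in 11 (0.0830%), both lower in 1 (0.00755%), and 7 had effects of opposite sign (0.0528%). The averaged effects alone were at an unadjusted p under 0.05 in 224 features for prenatal BPA (1.69%) and in 392 for overfeeding (2.96%), and 0 features (0%) passed an FDR of 0.05 by limma for either. The 19 became 59 without control library 0, 41 without control library 2, 35 without control library 3, 29 without ObBPA library 3 and 52 without the libraries numbered 0.

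ENSOARG00000012717 had the smallest p of those higher. Control libraries had 52.7, 62.6, 61.1 and 57.4, and BPA libraries 67.4, 74.3, 67.1 and 70.8. Obese libraries had 74.7, 73.5, 71.0 and 73.8, and ObBPA libraries 83.3, 76.8, 82.8 and 80.3. Control was the lowest group and ObBPA the highest, with no overlap of either with another group, while BPA and obese overlapped. The BPA and overfeeding differences from control, which share the control libraries, added up to 0.58 on the log2 scale, beside a measured ObBPA difference of 0.46. The interaction was -0.12 with a 95% interval of -0.34 to 0.11, against -0.15 without control library 1 and -0.09 without the libraries numbered 0, and the adjusted p of the averaged BPA effect was 1.00 by limma. ENSOARG00000007776, the only additive feature lower with both exposures, had 25.7, 31.9, 27.1 and 25.8 in control and 23.3, 23.8, 22.9 and 22.6 in BPA libraries. It had 25.0, 21.5, 22.8 and 23.7 in obese and 21.3, 21.4, 19.7 and 21.2 in ObBPA libraries. The sum of its differences from control was -0.47, beside a measured -0.38, and the interaction was 0.09 with an interval of -0.15 to 0.33. Control library 1 was its highest library, and without it the interaction was 0.03. Without the libraries numbered 0 it was 0.15.

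A difference of the same direction in both diets, without overlap of the libraries, was seen in 4 features (0.0302%), chosen after their values were seen, against 1 with opposed directions (0.00755%), ENSOARG00000021137. BPA and control libraries did not overlap in 157 features (1.18%), and ObBPA and obese libraries in 268 (2.02%). What a random order of libraries would give was not computed, so none of these counts carries a test. Beside ENSOARG00000012717 and ENSOARG00000007776, the 4 held ENSOARG00000003866 and ENSOARG00000014190. ENSOARG00000003866 had 4.93, 4.13, 5.95 and 5.92 in control and 6.23, 6.34, 6.71 and 6.26 in BPA libraries. It had 5.46, 5.41, 5.35 and 4.89 in obese and 6.58, 6.32, 6.28 and 6.29 in ObBPA libraries, so that the means with prenatal BPA were 6.38 ± 0.221 and 6.37 ± 0.144 in the 2 diets (SD, n = 4). Its difference was 0.26 under the control diet and 0.23 in overfed animals, an interaction of -0.02 ± 0.127 (SE). Control library 1 was its lowest library at 4.13, and without it the difference under the control diet was 0.17 and the interaction 0.07. Without the libraries numbered 0 these were 0.25 and -0.01, and without both they were 0.10 and 0.13. The sign of its interaction thus turned with control library 1. ENSOARG00000014190 had 1.96, 2.57, 2.86 and 1.98 in control, 0.755, 0.495, 0.913 and 1.24 in BPA, 2.56, 2.46, 2.69 and 2.53 in obese and 1.95, 0.732, 1.92 and 1.84 in ObBPA libraries. The difference was -0.86 under the control diet and -0.48 in overfed animals, an interaction of 0.38 ± 0.238 (SE). This interaction was 0.34 both without control library 1 and without the libraries numbered 0, and 0.56 without ObBPA library 1. Over 28 alternatives it ran from 0.23 to 0.68, the highest with 0.1 added before the log. The adjusted p of the interaction was 0.999 by limma for both, and that of the averaged BPA effect was 1.00 for ENSOARG00000003866 and 0.765 for ENSOARG00000014190.

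The 360 features were followed into the fits without the libraries that stood apart. Without control library 1, 359 were still tested, all of them with the same sign, and 249 (69.2% of the 360, 57.9% of the 430 in that fit) were still at an unadjusted p under 0.05. Without the libraries numbered 0, 349 were tested, all with the same sign, and 204 (56.7% of the 360, 35.1% of 582) were under it. These fits share most of their libraries with the full one, so a kept sign is no separate evidence. Of the 213 opposed features 145 stayed under the threshold without control library 1 and 128 without the libraries numbered 0. The numbers were 49 and 44 of 75 in the control diet class, and 55 and 32 of 72 in the overfed class. The libraries numbered 0 alone, 1 per group, allow no test.

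**Figure D5:**
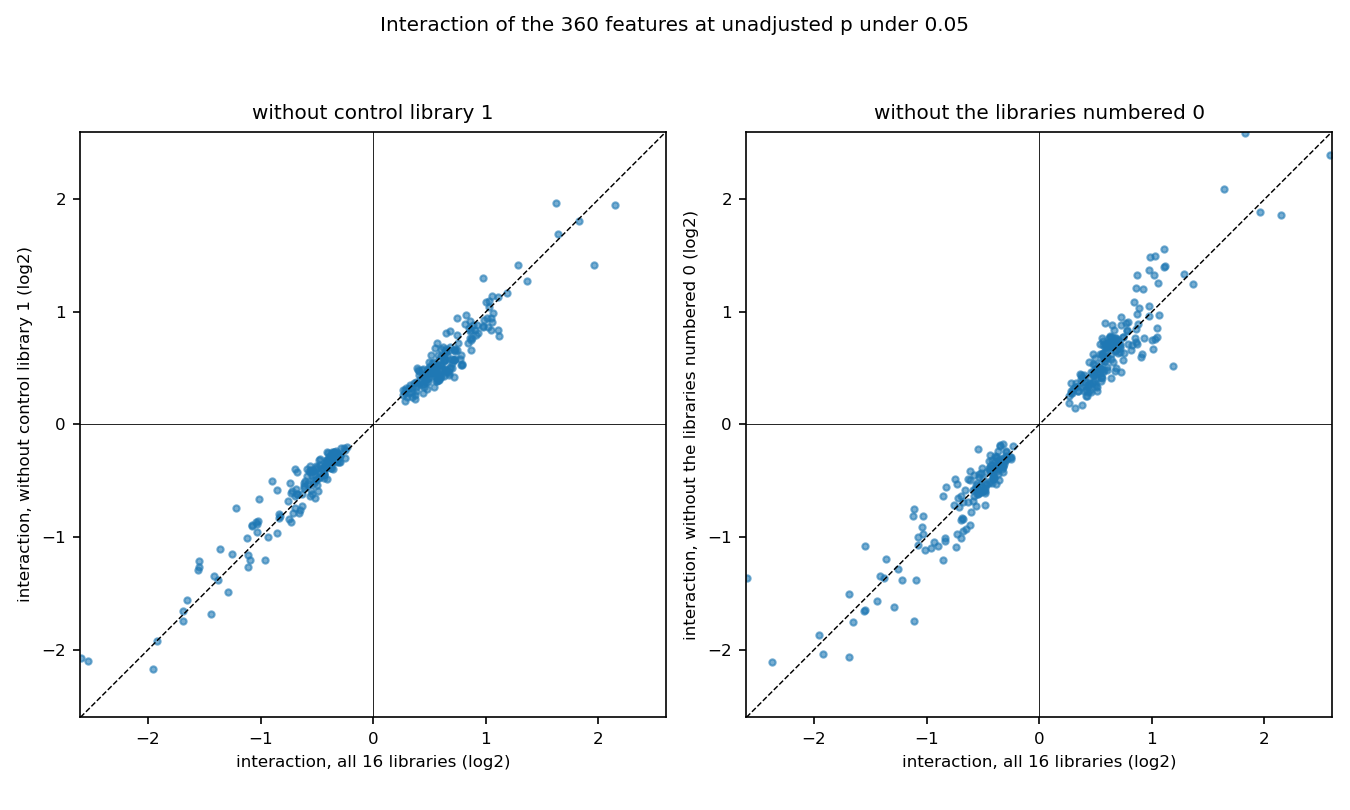
Interaction on the log2 scale of the 360 features in the fit of all 16 libraries (x axis) and without control library 1 (left, y axis) or without the libraries numbered 0 (right, y axis), with a dashed line of equal values. All points lie where both values have the same sign, and 29 features with an interaction beyond 2.6 fall outside the axes.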

How the data were processed

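Libraries were made from poly-A RNA of frozen myocardium, with a RNA integrity number of at least 7.0, per the labels' protocols. The deposited FPKM values were computed by the authors, 1 column per animal. Cuffdiff 2.1.1, Cufflinks, TopHat2 2.0.9, FastQC and Bowtie2 2.1.0 are named, in no stated order, per the submitters' processing notes, with build Oar_v3.1. Filters and scaling between libraries are not given in the sources used here.

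FPKM values are not counts, so log2(FPKM + 1) was fitted by limma 3.58.1 in R 4.3.3, with group means, a trended prior variance, 12 residual degrees of freedom and two-sided tests adjusted by the Benjamini-Hochberg method. The interaction was (ObBPA - obese) - (BPA - control). Figures used matplotlib 3.10.9 with numpy 2.4.6 and pandas 2.3.3 in Python 3.11.15. The fit was tested on simulated data. Relative depth came from the ratio of 1-read steps of low features, with a tolerance of 0.01 in log2. Libraries numbered 0 showed no common step.

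The rule named the 2 features of smallest interaction p in each direction. For each shape it named 1 per direction among features with FPKM of at least 1 in all 16 libraries. Features, shapes and checks were chosen with earlier results of these data known. Gene lists and cell type markers could not be used without names. The 4 animals of a group were called biological replicates in the series' design text.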

Additional observations from a re-analysis of the deposited data

Results flagged for a closer look

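Each group of 4 libraries of each named feature, and of 3 library summaries, was examined for a library far from the rest. The measure was the gap from that library to its neighbour as a share of the group's range. For the named features it was taken on the log2(FPKM + 1) scale. Of 60 such groups 5 held a library past the critical value of Dixon's test, which chance passes in about 1 in 20 groups. That chance number does not hold for features chosen by their values. For ENSOARG00000025092, control library 1 was high at an FPKM of 31.4, with a gap of 0.902 of the range. BPA library 3 was high at 49.2 for ENSOARG00000004257, with a gap of 0.903. For ENSOARG00000007776, ObBPA library 2 was low at 19.7, with a gap of 0.907. ObBPA library 0 was high at 6.58 for ENSOARG00000003866, with a gap of 0.877, and ObBPA library 1 was low at 0.732 for ENSOARG00000014190, with a gap of 0.928.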

How the results depend on the processing

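Under all 30 alternatives limma called 0 features for the interaction, and the interaction changed sign in 1 named feature, ENSOARG00000003866, from -0.0235 to 0.0663 without control library 1, 0.116 with library weights, 0.0086 after quantile normalization and 0.131 without control library 1 and the libraries numbered 0. It ran from -0.0794 to 0.0663 over the fits leaving out 1 library. The averaged BPA effect, recomputed for ENSOARG00000012717, ENSOARG00000007776, ENSOARG00000003866 and ENSOARG00000014190, kept its sign. The count of 360 (2.72%) was 659 of 20926 (3.15%) with no filter and 139 of 6148 (2.26%) at a mean FPKM of at least 10. It was 1418 (10.7%) with library weights, 582 (4.45%) without the libraries numbered 0 and 1017 (7.81%) without these and control library 1. In the same order the positive ones were 339, 76, 669, 343 and 475, and the negative ones 320, 63, 749, 239 and 542. Opposed features numbered 371, 82, 738, 309 and 542, the control diet class 153, 32, 469, 207 and 374, the overfed class 135, 25, 211, 66 and 101, and additive features 41, 8, 102, 52 and 59. The control diet class held 114 of 480 features after quantile normalization. A term for the libraries numbered 0 gave 535 features under the threshold, 266 of them negative and 131 in the control diet class, and 39 additive features.

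Library numbers were not treated as pairs: deviations of same-numbered libraries correlated by 0.0472 to 0.162 for number 0 and by -0.0838 to 0.0718 for the others. A replicate block gave 531 features under the unadjusted threshold, 260 of them negative, with 131 in the control diet class and 44 additive. All 4 libraries numbered 0 correlated best with one of their own number, and 1, 0 and 2 libraries of numbers 1 to 3 did.

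Leaving out 1 library gave 275 to 766 features under the threshold, 133 to 507 positive, 136 to 302 negative, 161 to 390 opposed, 58 to 313 control diet, 50 to 133 overfed and 14 to 59 additive. It gave 0 to 1 calls for prenatal BPA under the control diet, 0 to 1 in overfed animals and 0 to 1 averaged, and library weights gave 1 under the control diet. The median interaction of features at an FPKM of at least 100 ran from -0.0322, without control library 1, to 0.24, and it was -0.0076 with library weights and -0.0318 without control library 1 and the libraries numbered 0. The difference of the libraries numbered 0 ran from 1587 to 4789 features, and it was 1601 after median-of-ratios scaling and 1821 after quantile normalization. The cause of these shifts was not tested, except that fewer or more features are tested under another filter.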
